A study of Mus musculus with 15 samples.

Results

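Cyclosporin A, a blocker of the phosphatase calcineurin, was compared with a mixture of 3 kinase blockers in A.E7, a clone of mouse CD4 T helper cells, after stimulation through the T cell receptor. The comparison took every array titled CSA and every array titled Combo, 6 of the 15 arrays of the series, 1 of each on each of the chip types A, B and C. The CSA arm received anti-TCR and cyclosporin A. The Combo arm received anti-TCR with rapamycin, PD98059 and SB203580 together, so that the share of each of the 3 agents cannot be told apart. The other arms were a mock stimulation without anti-TCR, anti-TCR alone (titled Anergic), and anti-TCR with a protein kinase C inhibitor that the labels name only as PKCi. All arms were the same clone, and RNA from 2, 4 and 6 h was pooled before hybridisation, so early and late changes cannot be told apart and 1 clone stands for the cell type.

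Stimulation of the T cell receptor raises intracellular calcium, which activates calcineurin. Calcineurin removes phosphates from NFAT factors, which then enter the nucleus and act at cytokine and activation genes, often together with AP-1. Diacylglycerol made at the same receptor starts other branches through protein kinase C and Ras. MEK and its substrate ERK, blocked by PD98059, drive many immediate early genes. p38, blocked by SB203580, acts on stress responses and on RNA stability, and mTOR, blocked by rapamycin, promotes ribosome production, translation and lipid synthesis. Calcium and NFAT signals given without costimulation are known to drive anergy, a state in which T cells respond poorly to a later stimulus.

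Values are array intensities on a linear scale as deposited, and the 5 values given for a gene are always in the order mock, anti-TCR alone, CSA, PKCi and Combo. The floor of a chip type is the median of all its values (51.1 on A, 69.5 on B and 55 on C), and lower values were raised to it. A gene was measured when the brighter of the CSA and Combo values reached 4 times the floor, and was called higher or lower when the values lay at least 2-fold apart. A fold is written "at least" when the dimmer value did not exceed the floor. There was 1 array per arm and chip type, so values carry neither an error over cultures nor a test, and precision is limited by how few arrays there are. The only repeat of a measurement is a gene read by probe sets on different chip types. Over 741 such genes the SD of 1 reading of the log2 ratio of CSA to Combo, taken from the difference of 2 probe sets, was 0.50, which covers the probe sets and hybridisations but not the cultures.

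The RNA carried most markers of the labelled cell type. Of 16 markers of a CD4 T helper clone, 13 were on the arrays and 11 were measured. Cd247 and Cd5 were on the arrays but not measured, and Cd5 did not exceed 12.1 in any arm. Cd4 read 610.2, 608.4, 615.6, 597.5 and 879.6, while Cd8a did not exceed 7.5 in any arm. None of 14 B cell and antigen presentation markers and none of 11 erythroid and neutrophil markers was measured. Ctss and Cd14 were the 2 measured genes among 19 markers of macrophages and dendritic cells, whose summed level was 1721 with CSA and 1170 with Combo. Of 9 CD8 T and NK cell markers, 4 were measured, all of them lectin-like receptors that some CD4 clones also carry. Klrd1 read 4062.9, 1594.1, 2319.6, 2243.9 and 1947.9, above Cd4 in every arm. Klrc1, also above Cd4 in every arm, lay at 1.01 on the log2 scale of CSA over Combo. The sum of these 9 was 5703 with CSA and 3697 with Combo, and Ncr1, a defining NK receptor, did not exceed 9.4. The part of other cells in the results was not tested. In bulk RNA, fewer cells of a type and less RNA per cell cannot be told apart, and arrays brought to a common level do not show a change in total RNA.

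The 2 arms separated 591 of 5600 measured genes (10.6%). Of the measured genes, 249 (4.45%) were higher with CSA and 342 (6.11%) were lower, and the median gene lay at -0.01 on the log2 scale of CSA over Combo. At 4-fold or more, 34 genes were higher with CSA and 54 were lower. By probe set, 435 of 8550 (5.09%) were higher and 561 (6.56%) were lower. For scale, PKCi and Combo lay at least 2-fold apart in 497 of 5606 genes (8.87%), and CSA and PKCi in 773 of 5656 (13.7%), fewer for Combo than for CSA.

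Among genes that anti-TCR itself had changed, the separated share was larger than among genes it had changed by less than 2-fold. Anti-TCR alone against mock had 659 genes of 5803 higher (11.4%) and 808 lower (13.9%), a choice that uses neither the CSA nor the Combo arrays. Of 567 induced genes that were measured with CSA and Combo, 83 (14.6%) were lower with CSA and 77 (13.6%) were lower with Combo. Of 627 such repressed genes, 62 (9.89%) were lower with CSA and 17 (2.71%) were higher with CSA. Among 4001 genes that anti-TCR had changed by less than 2-fold, 104 (2.60%) were higher with CSA and 130 (3.25%) were lower. The rest of the 5600 measured genes were under the minimum with both mock and anti-TCR alone, and these shares do not cover them. Induced genes were thus split nearly evenly between the arms, and most separated repressed genes were lower with CSA. A further 92 induced and 181 repressed genes were under the minimum in both arms.

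**Figure D1:**
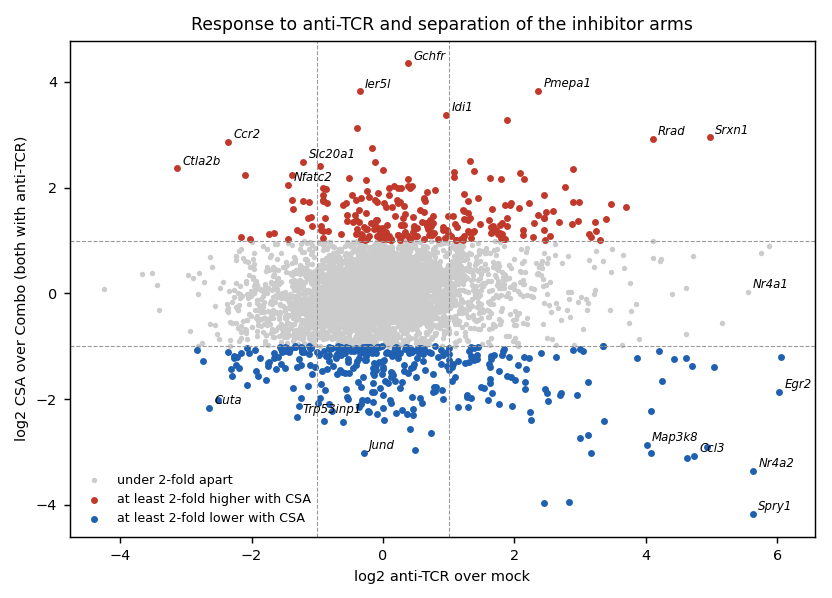
Each point is 1 of the measured genes, with log2 of anti-TCR over mock on the horizontal axis and log2 of CSA over Combo on the vertical axis; dashed lines mark 2-fold, red genes were higher with CSA and blue genes lower. Among induced genes, at the right, 83 points lie below the lower line and 77 above the upper one, while repressed genes, at the left, have 62 below and 17 above.

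The PKCi arm, which took no part in this ratio, mostly lay nearer to whichever arm was lower for an induced gene. Of the 83 induced genes lower with CSA, PKCi lay nearer to CSA in 68. Of the 77 induced genes lower with Combo, PKCi lay nearer to Combo in 70 (90.9%). Mock had the same order, nearer to CSA in 74 of the 83 and nearer to Combo in all 77. The nearness of PKCi is thus not particular to an inhibitor arm. Over all separated genes, PKCi lay nearer to Combo in 201 of the 342 lower with CSA (58.8%) and in 175 of the 249 higher with CSA (70.3%). Of the 62 repressed genes lower with CSA, PKCi lay nearer to Combo in 54 (87.1%), and of the 17 repressed genes higher with CSA it lay nearer to CSA in 9.

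Set against anti-TCR alone, an array that both ratios share, the CSA and Combo arrays were low for partly different induced genes. The induced and repressed genes were themselves chosen by their values on that anti-TCR array. Part of the counts below can thus follow from the choice, and the overlap of the arms was not counted over all genes. At least 2-fold lower than anti-TCR alone were 100 of the 659 induced genes with CSA only, 112 with Combo only, and 96 with both. The other 351 were at least 2-fold lower in neither arm. Of the 808 repressed genes, 203 were at least 2-fold above anti-TCR alone with Combo only, 64 with CSA only, 109 with both and 432 with neither. Over all measured genes, 264 (4.84% of 5453) were higher and 291 (5.34%) lower with CSA than with anti-TCR alone, against 447 (7.95% of 5621) and 307 (5.46%) with Combo.

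The genes lowest with CSA were mostly strongly induced genes that Combo left high. Spry1, an inhibitor of receptor tyrosine kinase signalling, read 41.7, 3428.2, 81.3, 103.2 and 1464.5, which put CSA 18.01-fold below Combo. Nr4a2, an orphan nuclear receptor, read 22.7, 2536.3, 121.7, 126.8 and 1245.3, or 10.2-fold lower with CSA, and a second probe set gave -3.37 on the log2 scale. Both genes were low with mock, CSA and PKCi and high with anti-TCR alone and Combo.

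The same order of arms held for other induced genes. Plek, pleckstrin, a protein kinase C substrate that binds phosphoinositides, read 173.4, 4274.5, 188.9, 160.7 and 1632.6 (8.64-fold lower with CSA). Slc29a1, a nucleoside transporter, read 57.1, 964.1, 55.7, 80.8 and 450.1 (8.08-fold lower). Map3k8, a kinase upstream of MEK and NF-kB, read 5.7, 824.4, 6.0, 7.9 and 372.4 (at least 7.29-fold lower). In these 3 genes the CSA value lay within 2-fold of mock, and Combo lay between CSA and anti-TCR alone. Ndrg1, a stress-responsive gene linked to T cell anergy, read 100.6, 801.7, 105.1, 129.6 and 698.7 (6.65-fold lower), and its second probe set gave -2.38. Rilpl2, a regulator of membrane trafficking, read 234.0, 1284.5, 63.3, 241.6 and 1081.3, at least 15.6-fold lower with CSA, although a second probe set on the same chip type gave only -0.40. Kif15, a mitotic kinesin read on a probe set that shares sequence with others, had 385.6, 2745.7, 98.3, 121.4 and 1512.6 (15.4-fold lower), and -2.83 on its second probe set. Rilpl2 and Kif15 went below their mock values with CSA.

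A few genes were low with CSA without having been induced. Jund, a subunit of AP-1, read 780.0, 635.2, 149.4, 866.7 and 1204.8 (8.06-fold lower with CSA). Tgif1, a homeobox repressor of TGF-beta signalling, read 450.3, 747.7, 147.6, 651.3 and 917.6 (6.22-fold lower). Galnt10, a glycosyltransferase read on a probe set that breaks a design rule, had 642.7, 900.6, 89.2, 672.1 and 695.4 (7.80-fold lower). In each of the 3, CSA was the lowest of the 5 arms and lay below mock.

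The genes highest with CSA held several patterns. Pmepa1, a membrane adaptor that restrains TGF-beta signalling, read 148.8, 763.7, 1427.5, 158.3 and 100, which put CSA 14.3-fold above Combo. Srxn1, which repairs oxidised peroxiredoxins, read 20.2, 1602.4, 1355.2, 92.2 and 175.2 (7.74-fold higher with CSA). Rrad, a small GTPase, read 119.1, 2049.7, 2864.9, 688.0 and 377.3 (7.59-fold higher). These were induced genes that kept or exceeded their anti-TCR level with CSA and were low with Combo and PKCi.

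Ier5l, related to the immediate early gene Ier5, had another order, with 338.3, 264.5, 5812.3, 3102.8 and 411.9, or 14.1-fold higher with CSA, and 2.90 on the log2 scale on another chip type. It was high with CSA and PKCi and low in the other arms. Nfkbiz, an atypical IkB protein, read 35.0, 377.5, 699.9, 36.5 and 136.5 (5.13-fold higher). Gzmb, a granule protease, read 455.0, 2021.4, 2140.8, 498.6 and 476.7 (4.49-fold higher). Gzmb thus stood at its mock level with Combo and PKCi and at its anti-TCR level with CSA. Maff, a small Maf factor, read 41.1, 472.0, 1003.2, 34.2 and 248.1 (4.04-fold higher). Vegfa, a vascular growth factor, read 95.7, 521.6, 642.0, 170.6 and 176.9 (3.63-fold higher).

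Gchfr, the feedback protein of the enzyme made by Gch1, had the highest ratio of all, 20.4-fold, on a probe set that breaks a design rule. It read 6187.2, 8033.5, 5156.9, 8059.9 and 252.7. The Combo array alone was low, and no second bright probe set of Gchfr repeats it.

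**Figure D2:**
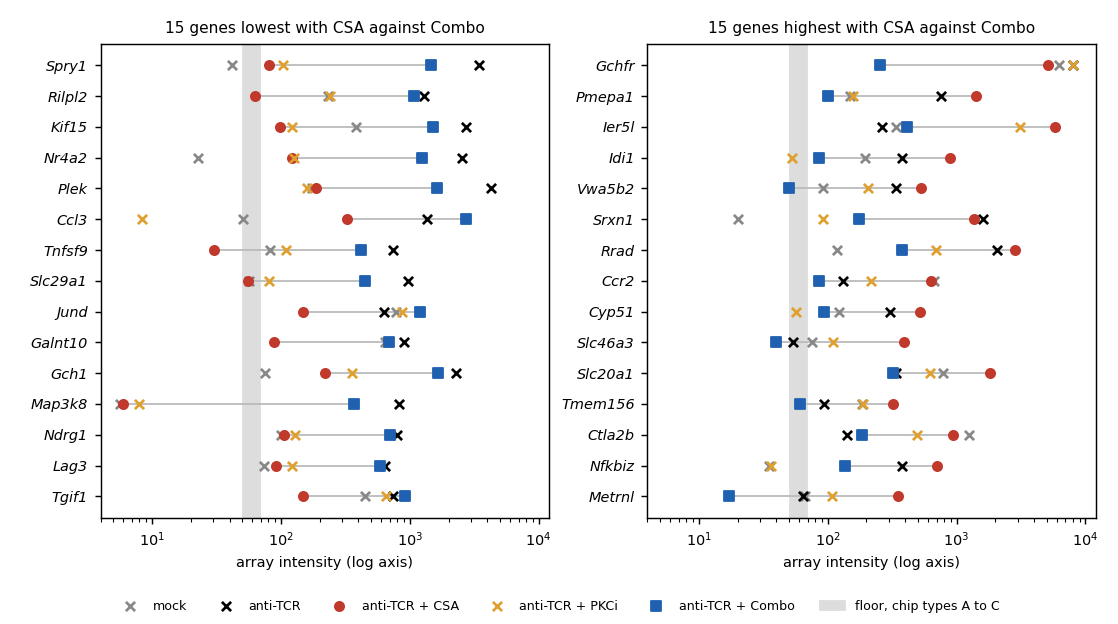
Array intensity on a log axis in the 5 arms for the 15 genes lowest and the 15 genes highest with CSA against Combo; red circles are CSA, blue squares Combo, crosses the other arms, and the grey band spans the floors of the 3 chip types. In most genes of the left panel Combo lies nearer to anti-TCR alone than CSA does, and PKCi lies nearer to CSA than to Combo. In Jund, Galnt10 and Tgif1 PKCi lies nearer to Combo. In the right panel Gchfr is low in the Combo arm only, at 252.7.

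Sterol synthesis was the list with the highest median. Of its 23 measured members, 11 were higher with CSA, where 4.45% of all measured genes were, and 1 was lower, and the median was 0.96 on the log2 scale of CSA over Combo against -0.01 for all genes. Against anti-TCR alone the median was 0.77 with CSA and -0.17 with Combo. Idi1, an isomerase of the isoprenoid route, read 194.0, 378.1, 892.2, 52.8 and 85.9, or 10.4-fold higher with CSA. Cyp51, which removes a methyl group from lanosterol, read 123.2, 307.0, 524.6, 56.8 and 92.9 (5.65-fold higher). Insig1, which retains the sterol sensor in the endoplasmic reticulum, read 85.8, 365.1, 655.2, 126.2 and 135.2 (4.85-fold higher). In these 3 genes CSA was the highest of the arms and PKCi the lowest or near mock.

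Early and late steps of the route had the same sign in most cases. Hmgcs1, which makes HMG-CoA, read 335.0, 513.8, 1197.8, 127.5 and 341.4 (3.51-fold higher with CSA). Msmo1, a sterol oxidase, read 117.8, 142.9, 354.5, 73.6 and 88.7 (4.00-fold higher). Sqle, squalene epoxidase, read 219.7, 301.9, 660.1, 175.4 and 294.6 (2.24-fold higher). The other members higher with CSA were Sc5d at 2.03, Scd2 at 1.77, Fdps at 1.58, Pmvk at 1.48 and Fdft1 at 1.30, each as log2 of CSA over Combo. Sc5d was read on a probe set of incomplete design and Scd2 on one that shares sequence. The fatty acid elongase Elovl5 went the other way at -1.16, with 158.8, 90.2, 143.3, 191.3 and 319.5. Fasn, fatty acid synthase, stood at 0.37, Acly, which supplies acetyl-CoA, at -0.38, and Mvd, a decarboxylase of the isoprenoid route, at -0.48. The list's median was 1.44 on chip type A alone and 0.13 on C alone. With a minimum of 8 times the floor it was 0.47, with 6 of 13 members higher. With a minimum of 2 times the floor it was 0.24, with 11 of 29 higher. At these 2 minimums other lists had higher medians, so the size and rank depend on the minimum.

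The promoters of Idi1, Cyp51 and Insig1 are shown because these were the 3 list members highest with CSA. Each runs from 250 bases before the start of transcription to 50 after it, 5′ to 3′ on the gene's strand, from RefSeq on GRCm38.p6, and capitals mark CCAAT or its reverse ATTGG, the box bound by NF-Y, a known partner of sterol response factors.
Idi1 (chr13:8885356-8885655, + strand): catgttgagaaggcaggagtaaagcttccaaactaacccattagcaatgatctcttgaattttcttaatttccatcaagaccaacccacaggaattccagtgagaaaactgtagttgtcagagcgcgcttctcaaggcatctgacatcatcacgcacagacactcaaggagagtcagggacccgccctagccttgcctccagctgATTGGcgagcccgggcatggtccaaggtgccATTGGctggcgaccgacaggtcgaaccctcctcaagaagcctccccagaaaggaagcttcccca
Cyp51 (chr5:4104648-4104947, - strand): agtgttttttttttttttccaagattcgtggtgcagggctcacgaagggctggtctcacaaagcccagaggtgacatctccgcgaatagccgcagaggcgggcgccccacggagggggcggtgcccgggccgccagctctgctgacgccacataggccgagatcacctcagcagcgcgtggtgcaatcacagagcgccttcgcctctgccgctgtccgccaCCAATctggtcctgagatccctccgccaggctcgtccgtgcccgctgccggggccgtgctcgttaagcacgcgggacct
Insig1 (chr5:28071162-28071461, + strand): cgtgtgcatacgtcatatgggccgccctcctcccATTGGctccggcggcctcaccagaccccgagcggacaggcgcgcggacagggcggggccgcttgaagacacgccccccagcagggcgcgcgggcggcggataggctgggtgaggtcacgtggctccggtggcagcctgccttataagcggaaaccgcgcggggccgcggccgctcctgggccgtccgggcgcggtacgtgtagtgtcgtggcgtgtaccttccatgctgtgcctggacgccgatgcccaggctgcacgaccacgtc
CCAAT or ATTGG was found in the window of 17 of the 18 measured list members with a promoter in the table, and in all 7 of those higher with CSA. It was found in 37.4% of all 32851 promoters, in 41.4% of those of measured genes, in 45.3% of those of genes higher with CSA and in 40.5% of those lower. A match is a description of the letters and not a binding site, and 4 of the 11 list members higher with CSA had no promoter in the table.

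**Figure D3:**
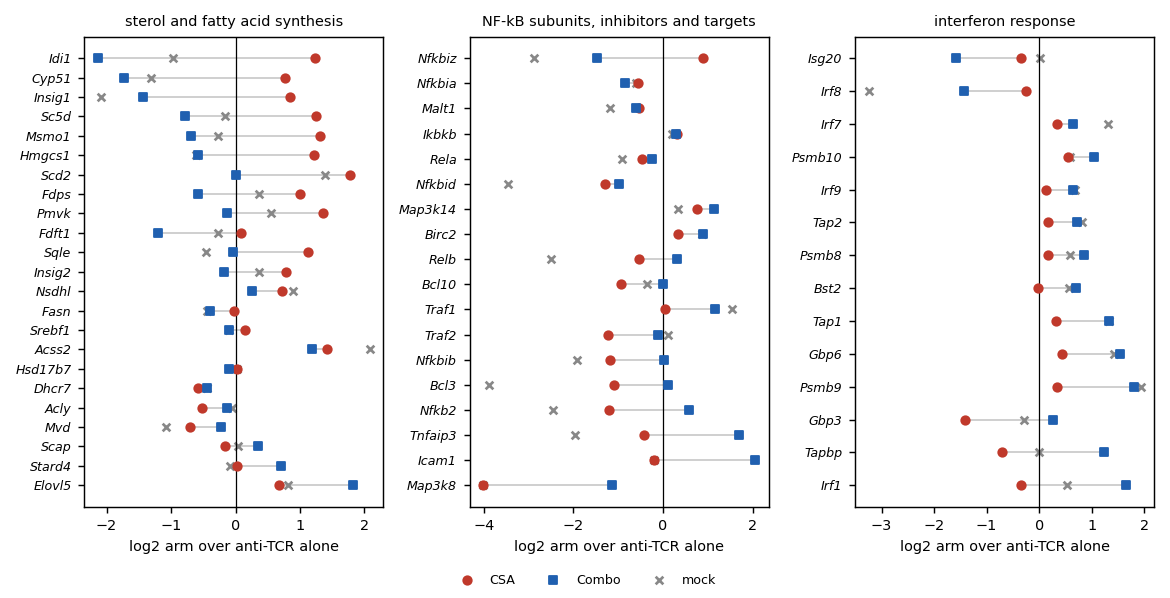
Log2 of CSA (red circles), Combo (blue squares) and mock (grey crosses) over anti-TCR alone for the measured members of 3 gene lists; both inhibitor ratios share the anti-TCR array. Idi1, Cyp51 and Insig1 lie right of 0 with CSA and left of 0 with Combo, most NF-kB genes lie further left with CSA, and Irf1, Tapbp and Psmb9 lie right of 0 with Combo.

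NF-kB genes had the lowest median among lists with 7 or more measured members. Of 18 measured subunits, inhibitors and targets, 8 were lower with CSA, where 6.11% of all measured genes were, and 1 was higher. The median was -0.89, and 14 of 18 lay below 0. Against anti-TCR alone the median was -0.54 with CSA and 0.08 with Combo. Tnfaip3, the deubiquitinase A20, read 4.9, 198.9, 147.4, 589.4 and 646.9 (4.39-fold lower with CSA than Combo). Nfkb2, the p100 subunit, read 79.1, 436.5, 188.5, 310.5 and 657.3 (3.49-fold lower). Icam1, an adhesion ligand and NF-kB target, read 33.1, 58.4, 31.0, 35.2 and 243.9 (at least 4.77-fold lower). In Tnfaip3, Nfkb2 and Icam1 the Combo value was the highest of the 5, above anti-TCR alone. Bcl3 at -1.22, Nfkbib at -1.21, Traf2 at -1.12 and Traf1 at -1.11 were also lower. Nfkbia, the IkB-alpha inhibitor, stood at 0.30 on a probe set of chip type C that shares sequence, but its 2 other bright probe sets, on A, gave -2.24 and -1.54. Nfkbiz, above, was the member that was higher. The list was read mostly on chip type A, where 7 of 12 members were lower. Of the 2 members read on B, 0 were lower, with a median of -0.14, and of the 4 read on C, 1 was lower, with a median of -0.15. With probe sets chosen again on C alone, the median of 5 members was 0.07. The list's low median thus rests mostly on chip type A.

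Interferon response genes were low with CSA against Combo in a different way. Of 14 measured genes, 6 were lower with CSA and 2 were higher, the median was -0.70, and 12 of 14 lay below 0. The shares over all measured genes were 6.11% lower and 4.45% higher. Adding the floor instead of raising to it left 4 lower and 1 higher. Against anti-TCR alone the median was 0.15 with CSA and 0.79 with Combo, so the difference lay mostly in higher Combo values. Irf1, an interferon regulatory factor, read 198.5, 136.8, 107.4, 221.1 and 430.1 (4.00-fold lower with CSA). Tapbp, tapasin, which loads peptide onto MHC class I, read 453.5, 453.0, 279.1, 928.9 and 1059.4 (3.80-fold lower). Its other bright probe sets gave -1.63 and 0.03. Psmb9, an immunoproteasome subunit, read 793.2, 207.4, 262.4, 553.7 and 722.4, and Tap1, a peptide transporter, read 970.9, 385.3, 480.5, 1143.0 and 968.8. Psmb9 and Tap1 were genes that anti-TCR had lowered and that stood near mock with Combo. Irf8, by contrast, read 147.8, 1404.0, 1180.8, 111.7 and 520.4 (2.27-fold higher with CSA), and Isg20, an RNA exonuclease, stood at 1.24.

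Cytokines were lower with CSA or not separated. Of 8 measured cytokines and chemokines, 4 were lower with CSA and 0 were higher, with a median of -0.74. Over all measured genes these shares were 6.11% and 4.45%. The medians against anti-TCR alone were -1.17 with CSA and -0.54 with Combo. Ccl3, a chemokine that recruits macrophages and T cells, read 50.5, 1362.6, 327.9, 8.4 and 2749.5 (8.39-fold lower with CSA). Csf1, a growth factor of macrophages, read 660.0, 2448.0, 692.4, 711.6 and 2050.9 (2.96-fold lower). Ifng, the Th1 cytokine interferon-gamma, read 151.3, 3260.6, 538.2, 84.1 and 1272.6 (2.36-fold lower). Csf2, GM-CSF, read 21.6, 1671.5, 151.1, 9.7 and 395.0 (2.61-fold lower). Both inhibitor arms thus held Ifng and Csf2 below anti-TCR alone, and CSA further. Ccl4, a chemokine related to Ccl3, read 132.8, 236.9, 2171.1, 29.6 and 2571.3, high in both arms and -0.24 between them. Xcl1 and Ccl1, named after their values were seen, were under the minimum in both arms after strong induction. Xcl1 read 9.5, 2472.0, 42.8, 36.3 and 141.4, and Ccl1 read 12.4, 1982.6, 21.9, 30 and 102.4. Il2 did not exceed 2.6 in any arm.

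TNF superfamily ligands had the same direction, with 3 of 7 lower with CSA, 0 higher and all 7 below 0, at a median of -0.76. Of all measured genes 6.11% were lower. Tnfsf9, the ligand of 4-1BB, read 82.8, 741.3, 30.5, 109.2 and 415.2 (at least 8.13-fold lower). Tnfsf11, RANKL, read 93.8, 2435.1, 568.9, 352.1 and 1480.6 (2.60-fold lower). Tnf read 334.5, 132.8, 892.0, 340.9 and 1786.0, exactly at the limit of 2.00-fold, and was highest with CSA and Combo. Ltb, a lymphotoxin subunit, stood at -0.18.

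Surface receptors of activation divided in both directions, with 5 of 15 measured genes higher with CSA and 4 lower. Of all measured genes 4.45% were higher and 6.11% lower. The division went partly with chip type. On A 1 of 9 was higher and 3 were lower, with a median of -0.90. On B 4 of 6 were higher and 1 was lower, with a median of 1.16. With arrays quantile normalized, 3 genes were higher and 4 lower. The checkpoint and costimulatory receptors Lag3, Ctla4, Tnfrsf4 and Slamf1 were the 4 lower ones. Lag3, an MHC class II receptor that dampens T cells, read 74.2, 644.1, 91.7, 122.3 and 585.1 (6.38-fold lower). Ctla4, which competes for the ligands of Cd28, read 659.6, 373.3, 171.3, 1627.6 and 731.5 (4.27-fold lower). Tnfrsf4, OX40, read 310.3, 1760.4, 362.5, 469.2 and 1482.5 (4.09-fold lower). Lag3 and Tnfrsf4 stood near mock with CSA and near anti-TCR alone with Combo.

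The 5 receptor genes higher with CSA included both IL-2 receptor chains of the list. Il2ra, the alpha chain, read 53.1, 163.6, 257.9, 68.9 and 56.8 (4.54-fold higher). Il2rb, the beta chain, read 1891.1, 2921.6, 3299.2, 1618.1 and 1610.3 (2.05-fold higher). Cd274, the ligand PD-L1, read 171.6, 2228.8, 1510.4, 128.1 and 484.7 (3.12-fold higher). In these genes Combo and PKCi lay near mock or between mock and CSA. Cd69, an early activation marker, stood at 1.33 and Cd44, an adhesion receptor for hyaluronan, at 1.28, with 1.59 on the second probe set of Cd44. After quantile normalization Il2rb and Cd44 were no longer 2-fold apart, at 0.70 and 0.62. Ccr2, a chemokine receptor that anti-TCR lowered, read 668.2, 130.8, 630.1, 215.9 and 86.2 (7.31-fold higher with CSA).

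Of 21 measured genes linked to anergy, 9 were lower with CSA, 2 were higher, and the median was -0.56. Among all measured genes 6.11% were lower with CSA. On chip type A alone the list's median was -0.98, and on B alone it was -0.08. Lag3, Ctla4, Nfatc1, Egr2 and Socs2, 5 of the 9 lower ones, are also on other lists. The ubiquitin ligases Rnf128 and Cblb, both known to restrain T cell receptor signalling, were among the lower ones. Rnf128, also called GRAIL, read 246.8, 496.4, 219.5, 331.6 and 602.7 (2.75-fold lower). Cblb read 681.4, 1343.9, 500.5, 509.5 and 1303.9 (2.61-fold lower), and its second probe set gave -1.30. Ptpn1 stood at -1.24 but at 0.07 on another chip type, and Socs2 at -1.06 and -0.29. Rgs2, a regulator of G protein signalling, was higher with CSA at 706.8, 374.7, 2206.8, 1834.8 and 608.4 (3.63-fold), and the ligase Nedd4 stood at 1.07. Other ligases of the list, Itch at 0.10 and Cbl at -0.21, were not separated.

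**Figure D4:**
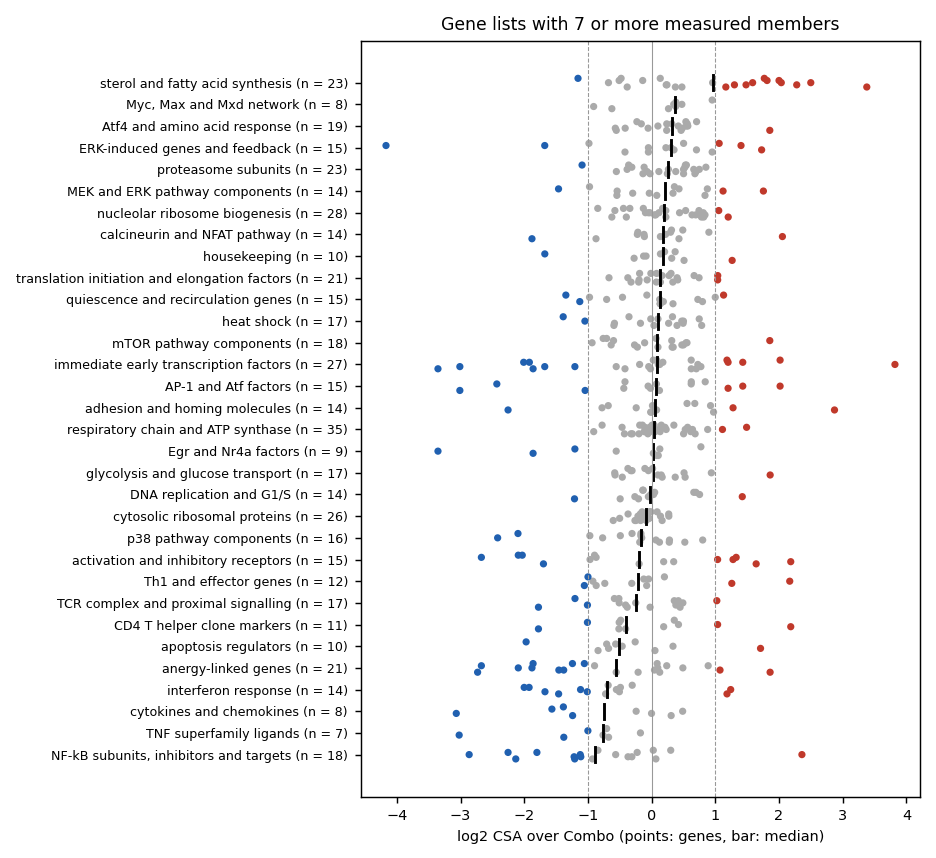
Log2 of CSA over Combo for the measured members of the gene lists with 7 or more of them; points are genes, coloured past the dashed 2-fold lines, and black bars are medians. The sterol list has the highest median, 0.96, and the NF-kB list the lowest, -0.89, and most other medians lie close to 0.

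Most components of the blocked pathways themselves lay within 2-fold, as did most measured genes, of which 10.6% were separated. In the calcineurin and NFAT list, 1 of 14 measured genes was higher, 1 was lower, and the median was 0.18. Nfatc1, an NFAT factor that NFAT itself induces, read 342.0, 2236.3, 222.9, 276.7 and 820.2 (3.68-fold lower with CSA), and its other probe sets gave -2.75 and -2.97. Nfatc2 had the opposite order, at 1149.9, 423.0, 1814.6, 795.4 and 437.6 (4.15-fold higher). The induced factor was below mock with CSA and between mock and anti-TCR alone with Combo, and the repressed one was above mock with CSA only. Nfatc3 stood at 0.22 and Nfat5 at 0.49. The calcineurin subunits Ppp3ca at 0.90, Ppp3cb at 0.31, Ppp3cc at 0.43 and Ppp3r1 at 0.14 were all within 2-fold on their brightest probe sets. Further probe sets of Ppp3ca and Ppp3cb gave up to 1.28.

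In the mTOR list, 1 of 18 measured components was higher and 0 were lower. That gene was Ddit4, an inhibitor of mTOR that many stresses induce, at 415.3, 300.9, 1249.7, 1727.2 and 345.7 (3.61-fold higher with CSA). It was high with CSA and PKCi and near anti-TCR alone with Combo. Of 14 components of the MEK and ERK pathway, the GTPase-activating protein Rasa1 and the exchange factor Sos2 were higher and the exchange factor Rasgrp1 was lower. Rasa1, a brake on Ras, read 630.9, 270.2, 1193.3, 366.5 and 353.9 (3.37-fold higher). Rasgrp1 stood at -1.46, and at -0.79 on another chip type. Of 16 genes of the p38 list, Gadd45b and Zfp36l1 were lower with CSA and 0 were higher. Gadd45b, which activates the p38 route, read 166.6, 1714.5, 474.4, 248.3 and 2536.0 (5.35-fold lower), with -2.57 on its second probe set. Zfp36l1, an RNA decay factor that p38 signalling restrains, read 438.4, 1494.1, 346.1, 328.1 and 1482.9 (4.28-fold lower). With Combo both lay within 2-fold of anti-TCR alone.

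Genes known to be induced through ERK, many of which feed back on it, did not share a direction. Of 15 measured, 3 were higher with CSA, 2 were lower, and the median was 0.30. The shares over all measured genes were 4.45% higher and 6.11% lower. Dusp5, a nuclear ERK phosphatase, read 1567.3, 3669.5, 5339.6, 2455.0 and 2020.3 (2.64-fold higher). Errfi1, an inhibitor of EGF receptor family kinases, read 37.1, 378.7, 334.7, 49.1 and 101.2 (3.31-fold higher). Trib1, a pseudokinase, read 249.0, 2245.2, 1214.8, 228.8 and 583.0 (2.08-fold higher), and 1.20 on another chip type. These 3 were lower with Combo, whereas Spry1, above, and Ier3 were lower with CSA. Ier3, an early response gene, read 406.8, 3532.2, 752.0, 480.9 and 2408.0 (3.20-fold lower). Dusp6, a cytoplasmic ERK phosphatase, read 13.1, 634.4, 218.1, 12.1 and 431.6, just inside the 2-fold limit at -0.98, with -1.04 on another chip type. The remaining phosphatases Dusp1 at 0.95, Dusp14 at 0.35, Dusp2 at 0.30 and Dusp7 at -0.05 were within 2-fold. Dusp2 gave 2.86 on another chip type, so its probe sets differ in size.

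Immediate early transcription factors divided gene by gene, with 5 of 27 measured higher with CSA, 7 lower and a median of 0.08. Over all measured genes 4.45% were higher and 6.11% lower. Within the Egr family, Egr2 read 43.8, 3325.4, 582.2, 41.7 and 2116.3 (3.64-fold lower with CSA). Egr3 read 121.3, 4353.8, 2358.6, 72.0 and 3470.4, at -0.56. Egr1 read 86.9, 345.5, 674.7, 13.4 and 639.0, at 0.08, and Egr4 stood at 0.13. Egr2 was thus the Egr gene that separated the arms by 2-fold or more. Within the Nr4a family, Nr4a1 read 64, 3002.3, 2244.1, 77.3 and 2204.7, at 0.03. Nr4a3 read 74.4, 4965.2, 1160.2, 149.2 and 2676.0 (2.31-fold lower), with -1.35 on another chip type. Nr4a2, above, was separated 10.2-fold, so the 3 orphan receptors ran from 0.03 to -3.36. Egr1, Egr2, Egr3 and the Nr4a genes all lay below anti-TCR alone with PKCi.

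Other factors followed either order. Irf4, a factor that sets the strength of the T cell receptor response, read 268.7, 2075.7, 367.5, 206.1 and 1391.0 (3.79-fold lower with CSA). Batf, an AP-1 partner of Irf4, read 157.3, 103.4, 30.4, 61.4 and 275.6 (at least 5.39-fold lower). Nfil3, a basic leucine zipper repressor, read 52.7, 160.3, 79.7, 145.9 and 320.9, at -2.01. Irf4 and Batf act together on many T cell genes, and both were low with CSA, although only Irf4 was induced. Fosb read 172.2, 636.8, 502.1, 174.3 and 186.4, at 1.43, and stood near mock with Combo and PKCi. Crem, a cyclic AMP responsive factor read on a shared probe set, stood at 1.20, with 1.52 on its second probe set. Fos itself was under the minimum in both arms.

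One promoter is shown for the group lower with CSA, that of Nr4a2, because it is among the most separated induced genes and has a RefSeq promoter. Capitals mark TTTCC, the reverse of GGAAA, the core letters that NFAT factors recognise, in the same window and on the same build as above.
Nr4a2 (chr2:57123954-57124253, - strand): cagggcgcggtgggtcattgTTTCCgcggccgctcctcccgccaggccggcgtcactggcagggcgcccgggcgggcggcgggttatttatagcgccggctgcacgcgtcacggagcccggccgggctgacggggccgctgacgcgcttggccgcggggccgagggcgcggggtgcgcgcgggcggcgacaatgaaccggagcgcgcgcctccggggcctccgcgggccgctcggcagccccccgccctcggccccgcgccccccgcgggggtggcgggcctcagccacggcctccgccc
GGAAA or TTTCC was found in 61.3% of all promoters, in 66.7% of those lower with CSA and in 62.7% of those higher, so the letters are common in every set.

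Most separated genes that anti-TCR had repressed stood higher with Combo. Trp53inp1, a p53 target that takes part in autophagy, read 561.0, 226.3, 124.2, 523.5 and 626.1 (5.04-fold lower with CSA). Nbr1, an autophagy receptor, read 263.7, 111.0, 87.0, 315.5 and 341.4 (3.92-fold lower). Tmed4, a cargo receptor of the secretory pathway, read 478.1, 114.0, 132.8, 446.9 and 440.7, at -1.73. In these 3 genes the PKCi and Combo values stood near mock and the CSA value near anti-TCR alone. Cuta, Dusp28, Dguok and Rgs19, read on probe sets with a marked suffix, stood between -2.16 and -1.75 and were likewise higher with PKCi and Combo than with CSA. Dguok, a mitochondrial kinase of nucleosides, gave -2.04 on its second probe set.

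A smaller group returned with CSA only or further than with Combo. Ctla2b, a protease inhibitor homologue of lymphocytes, read 1249.6, 142.2, 945.2, 494.0 and 183.7 (5.15-fold higher with CSA). Slc20a1, a phosphate transporter, read 788.9, 340.3, 1805.9, 619.7 and 322.9 (5.59-fold higher). Fgl2, a secreted fibrinogen-like protein of T cells, read 1190.2, 278.0, 1349.9, 1270.2 and 287.0 (4.70-fold higher). These genes stayed at their anti-TCR level with Combo, and PKCi brought Fgl2 to mock as CSA did.

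Lists for the basic machinery of the cell held few separated genes. Of 26 measured ribosomal protein genes 0 were separated, with a median of -0.09. Of 28 genes of ribosome production, Rrs1 and Nop58 were higher with CSA, at 1.20 and 1.05. Of 21 translation factors, Eef1e1 and Eif4a1 were higher at 1.04, and of 23 proteasome subunits Psmd4 was lower at -1.09. Of 35 respiratory chain genes, Ndufs1 and Cox5b were higher, at 1.49 and 1.11. Of 17 genes of the glycolysis and glucose transport list the separated one was Vegfa, a growth factor and not an enzyme of the route, and of 19 Atf4 targets 1 gene was. The separated members of the ribosome production and translation lists were lower with Combo, but most members of both lists were within 2-fold. Of all measured genes 4.45% were higher with CSA. Adding the floor instead of raising to it left 1 ribosome production gene and 0 translation factors higher.

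The remaining lists held genes in both directions. Of 17 T cell receptor and proximal signalling genes, 3 were lower with CSA and 1 was higher, against 6.11% and 4.45% of all measured genes. Cd2, an adhesion receptor of T cells, read 880.2, 1537.4, 440.0, 1074.9 and 1508.6 (3.43-fold lower), and Lcp2, the adaptor SLP-76, read 651.4, 2878.8, 509.9, 343.5 and 1174.9 (2.30-fold lower). Cd3e stood at -0.51, Cd3g at 0.35 and Cd3d at 0.42, so the chains of the receptor complex were not separated. The cell cycle inhibitor Cdkn1a read 108.8, 595.9, 657.3, 148.2 and 245.3, at 1.42, and the G1 cyclin Ccnd2 read 279.3, 1727.3, 337.1, 590.0 and 780.8, at -1.21. Casp4, an inflammatory caspase, stood at -1.97 and Bbc3, a pro-apoptotic BH3 protein, at 1.71. Among 17 heat shock genes, Hspa4l at -1.39 and Dnajb1 at -1.05 were lower, and among quiescence genes Foxp1 at -1.35 and Slfn2 at -1.13.

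Second probe sets on another chip type repeated the sign for most called genes, and the size less often. Of 26 genes at least 2-fold higher with CSA on their brightest probe set, 21 (80.8%) had the same sign on the second and 12 were at least 2-fold higher on it. Of 32 lower ones, 29 (90.6%) had the same sign and 14 were at least 2-fold lower. Gch1, the first enzyme of tetrahydrobiopterin synthesis, read 75.2, 2292.0, 220.9, 354.8 and 1643.1 (7.44-fold lower) and gave -3.30 on chip type B. Lysmd3, a LysM-domain membrane protein, read 598.4, 816.5, 2305.5, 1188.3 and 565.8, at 2.03, with 1.33 and 1.56 on further probe sets. Myo10, an unconventional myosin, stood at 1.43, 1.20 and 1.39, Cirbp, a cold-inducible RNA-binding protein, at -1.54 and -1.91, and Tubb5, a beta tubulin, at -1.68, -1.51 and -1.78. These genes were separated at a like size by every bright probe set, but they were named for being best repeated, so this follows from the choice. Over all 741 genes the correlation of the 2 readings was 0.46. Of the 6 genes at least 4-fold higher with a second chip type, however, only 3 had the same sign there. Prpsap1 stood at 3.12 and -0.86, Lmna at 2.21 and -0.33, and Brap at 2.19 and -0.34, each read first on a suffixed probe set.

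**Figure D5:**
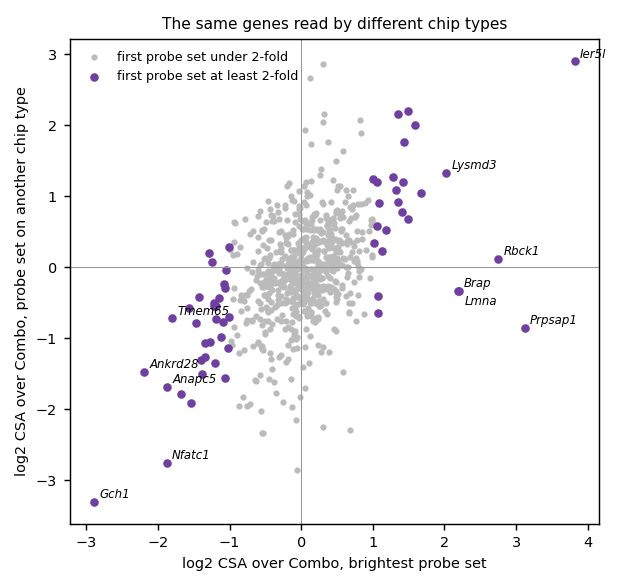
Log2 of CSA over Combo for 741 genes with bright probe sets on 2 chip types, with the brightest probe set on the horizontal axis and the other on the vertical axis; purple points were at least 2-fold apart on the first. Gch1, Nfatc1 and Ier5l lie far from 0 on both axes, whereas Prpsap1, Rbck1, Brap and Lmna lie close to 0 or across it on the vertical axis.

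On chip type B the highest values lay with CSA. Probe sets were classed by the brighter of their CSA and Combo values. Of 15 probe sets at 64 floors or more, 10 were at least 2-fold higher with CSA and 0 were lower, with a median of 1.28. The maximum value on that chip was 7256.9 with CSA and 3975.9 with Combo, the latter under 64 floors. All probe sets of this class thus entered it through their CSA value, so their direction follows from the choice. At 32 to 64 floors the median was 0.51 and at 4 to 8 floors it was -0.05. On chip types A and C the median of the brightest class was -0.15 and 0.07. Cd44 and Dusp5 were read in that class on chip type B. With arrays quantile normalized, Dusp5 stood at 1.01, and Hnrnpll, an RNA splicing regulator, at 1.28 against 1.68 as deposited. The second probe set of Hnrnpll, on chip type A, gave 1.04.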

How the data were processed

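RNA of A.E7 cells, pooled over 3 times per arm, was read on oligonucleotide arrays of 3 chip types, and each array's table holds linear intensity values as deposited by the authors. The scaling and software are not given in the sources used here. Arms were taken from the array titles. Of 36701 probe sets, 29131 carry 1 gene symbol, 724 several and 6846 none; 29044 matched the current gene table, which changed 0 symbols. Each of the 15964 genes was read on the probe set of its symbol that was brightest on average over the 5 arms. A suffix letter in the names of 8897 probe sets marks shared sequence or a broken design rule. With 1 array per arm and chip type no test was run, and each ratio compares arrays rather than conditions. On chip type A the median value was 52.3 with CSA and 46.95 with Combo, on B 69.9 and 70.8, and on C 55.15 and 55.05. Between 17.4% and 23.0% of probe sets reached 4 floors. Steps were tested on simulated data (Python 3.11.15, pandas 2.3.3, numpy 2.4.6).

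The comparison, the lists of genes and the rule for naming them were chosen with earlier results of these data known. Named genes are the 15 highest and 15 lowest ratios whose further bright probe sets share the sign, the 8 highest and 8 lowest of induced and of repressed genes, the 3 highest and 3 lowest and all separated members of each list, the Egr, Nr4a, NFAT, calcineurin, Dusp and Spry genes, and the 10 genes per direction best repeated across chip types. Genes named outside this rule, and every gene of the closing observations, were chosen after their values were seen. Alternatives were 2 normalizations, other floors and minimums, other choices of probe set, and single chip types.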

Additional observations from a re-analysis of the deposited data

Results flagged for a closer look

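In 6 genes the CSA and Combo arrays stood on opposite sides of anti-TCR alone, each at least 2-fold away from it. Of these, 5 were lower with CSA and 1 was higher. In both ratios against anti-TCR alone, the brighter value had to reach 4 times the floor. Batf and Nfil3 had the same order at 2-fold but missed this minimum with CSA against anti-TCR alone. Both ratios use the same anti-TCR array, and the difference was not tested. Ccl3, described above, lay 2.06 below anti-TCR alone on the log2 scale with CSA and 1.01 above it with Combo, a difference of -3.07. Sat1, which acetylates polyamines for export, read 233.0, 310.0, 134.0, 432.5 and 797.4, a difference of -2.57. Pim1, a kinase induced by cytokines, read 1158.2, 991.3, 486.7, 516.6 and 2264.4, a difference of -2.22, with -1.07 on its second probe set. PKCi shared the high side in Sat1 but not in Ccl3 or Pim1.

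Rhox13, a homeobox gene known from germ cells, read 167.2, 230.6, 111.1, 210.4 and 545.5, a difference of -2.30. Vwa5b1, a gene with a von Willebrand factor domain, read 413.8, 242.8, 119.5, 286.4 and 559.8, a difference of -2.23. Idi1, described above, was the gene in the opposite direction, 1.24 above anti-TCR alone with CSA and -2.14 from it with Combo, a difference of 3.38. Each of the 6 was read on a probe set without a marked suffix, and Ccl3, Sat1, Rhox13, Vwa5b1 and Idi1 had no second bright probe set.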

How the results depend on the processing

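Counts are given in the order higher with CSA, lower with CSA, induced and lower with CSA, induced and lower with Combo, repressed and higher with CSA, repressed and lower with CSA; as reported they were 249, 342, 83, 77, 17 and 62. Quantile normalization, median scaling, averaging probe sets, leaving out suffixed probe sets, and 0.5 or 2 times the floor kept every count within 1.5 times of this; the last 2 give the same counts by construction. Adding the floor instead of raising to it left 214 genes lower, 10 repressed higher and 27 repressed lower. A minimum of 8 times the floor left 151 higher, 188 lower and 32 repressed lower, and a minimum of 2 times gave 408, 536, 39 repressed higher and 103 repressed lower. Each chip type alone tests fewer genes, with 112, 209, 55, 40, 9 and 32 for A. They were 114, 111, 25, 41, 10 and 20 for B, and 69, 99, 20, 15, 2 and 17 for C. Median scaling moved the median of all genes from -0.01 to -0.06.

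Signs turned in 1 list median and 5 named genes. The NF-kB median was 0.066 on chip type C alone. Brap turned to -0.34, Prpsap1 to -0.86 and Rbck1 to -0.62 both without suffixed probe sets and on chip type A alone, and Rbck1 stood at -0.030 when its probe sets were averaged. Lmna stood at -0.33 on C alone and Ptpn1 at 0.068 on B alone. The cause was not tested. The mitosis list, with 2 measured members and a median of -1.82, stood at 0.043 with 9 members at a minimum of 2 times the floor. Other list medians beyond 0.5, for lists of 3 or more measured members, and other named genes beyond 2-fold kept their sign under every alternative that measured them. No paired analysis was possible because each arm has 1 array per chip type, and leaving out a replicate was not possible for the same reason. Signal over background limits the rest: 10364 of 15964 genes were under the minimum in both arms.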

Other observations

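The genes below were chosen after their values were seen, so their direction is a description. Enzymes around tetrahydrobiopterin, a cofactor that activated T cells make, lay apart in both directions. Gch1, which starts the route, was 7.44-fold lower with CSA, while Gchfr, its feedback protein, was low with Combo. Spr, which makes the last reduction, read 5423.1, 4724.7, 4499.5, 8902.3 and 9099.0 on a probe set that shares sequence, at -1.02, and its other probe sets gave between -1.14 and -0.82. Qdpr, which recycles the cofactor, read 422.7, 602.5, 351.9, 983.7 and 821.3, at -1.22. Spr and Qdpr were thus higher with both PKCi and Combo than with CSA. Gch1 was so too, at 220.9 with CSA, 354.8 with PKCi and 1643.1 with Combo, but with PKCi it lay within 2-fold of CSA.

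Some genes of peptide supply to MHC class I and of autophagy lay lower with CSA and others did not. Psme1, a proteasome activator, read 264.1, 179.0, 153.2, 211.6 and 539.0 (3.52-fold lower). Nlrc5, which drives MHC class I genes, read 817.4, 400.4, 344.4, 602.0 and 900.9 (2.62-fold lower). B2m, the light chain of MHC class I, was not separated, at -0.13. Map1lc3b, a coat protein of autophagosomes, read 583.8, 119.0, 177.3, 599.5 and 522.6 (2.95-fold lower), with -0.28 and -0.58 on its other probe sets. Gabarapl1, a related coat protein, read 218.8, 339.6, 162.6, 440.8 and 442.0 (2.72-fold lower). Gabarapl2, of the same family, lay on the other side, at 0.41 and, on another chip type, 0.92.

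Of brakes on Ras other than Rasa1, Rasa2 stood at 1.21, with 0.93 and 0.42 on its other probe sets, and Rasal3 read 199.4, 686.6, 1438.5, 1444.7 and 586.3, at 1.29. Rasa3 at -0.08, Nf1 at 0.08 and Spred1 at -0.05 lay within 2-fold. Of probe sets with no gene symbol, 70 of 1098 measured were at least 2-fold higher with CSA and 61 were lower. Of those with several symbols, 5 of 232 were higher and 16 lower. Over all measured probe sets the shares were 5.09% higher and 6.56% lower.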
